A study of Mus musculus with 9 samples.

Results

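The genes described here encode guanine nucleotide exchange factors (GEFs) and GTPase-activating proteins (GAPs) of small GTPases of the RhoA/Rac/Cdc42, Ras and Rap families. They were chosen by name and level: a gene symbol made of Arhgef, Arhgap, Rapgef, Rasgef, Rasgrp, Rasa, Rasal or Dock and a number, with at most 1 letter after it, and a mean of at least 1 CPM (a count as a share of the library's total, on a common scale) over all libraries. In all, 92 gene identifiers with 90 symbols bore such a name among the 55450 identifiers measured, and 66 of them reached that level, each with a symbol of its own. They were 26 Arhgap, 15 Arhgef, 10 Dock, 5 Rapgef, 1 Rasgef, 2 Rasgrp, 4 Rasa and 3 Rasal genes, that is 33 GEFs and 33 GAPs by family name.

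A small GTPase is a switch that is on while it holds GTP and off once that GTP is cut to GDP. GEFs turn it on by letting GDP leave so that GTP can bind, and GAPs turn it off by speeding up the cut. In macrophages, RhoA, Rac and Cdc42 shape the actin cytoskeleton in migration and phagocytosis, Ras feeds the MAP kinase cascade, and Rap controls integrin adhesion.

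The cells were IMM, an immortalized macrophage line from mouse of WT genotype, sampled at 0, 30 and 60 min of lipopolysaccharide (LPS), the cell wall component of Gram-negative bacteria that is sensed by Tlr4. All groups were grown in cDMEM with serum and used after 5 passages from thawing. The dose of LPS was 100 ng/mL, the dishes were iced at the end, and total RNA was depleted of ribosomal RNA and made into stranded libraries, with 3 libraries per time and 0 min as the control. No unstimulated library at 30 or 60 min was used, so LPS, handling and time cannot be told apart, and since the labels alone call the libraries biological replicates, the p-values measure the spread between these samples.

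Library totals ran from 26867428 to 30402308 counts, and 10 counts were worth 0.329 to 0.372 CPM. The 8 macrophage markers summed to 1809 to 1889 CPM at 0 min, 1944 to 1966 CPM at 30 min and 1959 to 2036 CPM at 60 min. Of these, Cd14, which LPS is known to raise, had 21.7 to 24.9 CPM at 0 min, 81.1 to 103.6 CPM at 30 min and 123.4 to 143.6 CPM at 60 min, and Fcgr1 had 98.4 to 106.8, 99.5 to 105.4 and 85.2 to 91.7 CPM. Markers of other cells were low: the 6 T cell markers summed to at most 3.91 CPM in any library, with Cd3e and Cd8a at 0 in all 9, and the 5 B cell markers to at most 0.593 CPM. In bulk RNA, fewer cells of a type and less RNA per cell cannot be told apart.

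All 66 genes had enough counts to be tested. Of the 26 identifiers below the minimum level, 15 had 0 counts in every library, among them the second identifiers of Arhgap26 and Arhgef4. The minimum fell in a gap: the lowest genes inside had mean levels of 1.86 CPM (Rapgef3), 2.07 CPM (Arhgef40) and 2.38 CPM (Arhgef19), and the highest outside had 0.708 CPM (Rasgrp2), 0.225 CPM (Arhgef17) and 0.079 CPM (Dock3).

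Levels can be compared between genes only per length, here CPM per kb of merged exon of all annotated transcripts, averaged over the 9 libraries. On this scale the highest of the 66 was Rasgrp3, a Ras and Rap GEF that responds to diacylglycerol, at 39.7 CPM per kb. Arhgap11a, a GAP for RhoA, followed with 38.5 CPM per kb, and Rapgef1, a GEF for Rap1, with 29.3 CPM per kb. Next came Arhgef6 (alpha-PIX), a GEF for Rac and Cdc42, at 26.2 CPM per kb and Arhgap10 at 25.3 CPM per kb. The next were the blood cell genes Dock2, a Rac GEF, at 23.1 CPM per kb and Dock8, a Cdc42 GEF, at 22.5 CPM per kb, and then the Ras and Rap GAP gene Rasa3 at 19.6 CPM per kb. None of these 8 changed beyond the threshold in any comparison of the main fit. With total counts as the only scaling, Arhgef6 and Rasgrp3 passed it as lower at 60 min against 0 min (log2 change -0.12 and -0.19). So did Rasgrp3 at 60 min against 30 min (-0.15).

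The levels per kb above and the CPM values from here on, other than those of partners of overlapping genes, were scaled by edgeR's TMM factors, and those before by plain totals. The 66 genes together took 4389 ± 20.2 CPM at 0 min, 4521 ± 77.7 CPM at 30 min and 4741 ± 64.3 CPM at 60 min (SD, n = 3 each). Rasgef1b and Rapgef2 together took 88.5, 178.3 and 450.5 CPM of these sums at the 3 times. At 0 min 16 of the genes averaged at least 100 CPM, and at 60 min 19 did. Those added were Rasgef1b, Rapgef2 and Rasa3, and Rasa3 differed little, with 99.0 CPM at 0 min and 100.2 CPM at 60 min.

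A gene is called changed here at a Benjamini-Hochberg adjusted p under 0.05 over the 14246 genes tested with edgeR's quasi-likelihood test, two-sided, and every adjusted p below is from that test. At 30 min against 0 min, 3 of the 66 genes were higher, where 4.84% of all genes tested were, and 1 was lower, where 3.35% of all genes were. At 60 min against 0 min, 11 of 66 (16.7%) were higher, beside 13.3% of all genes, and 12 of 66 (18.2%) were lower, beside 11.7% of all genes. From 30 to 60 min, 7 were higher, beside 8.87% of all genes, and 11 were lower, beside 7.65% of all genes. Of the 12303 genes tested with a mean of at least 1 CPM, the level required of the 66, 14.4% were higher and 12.7% lower at 60 min against 0 min. For these genes the shares were 5.28% and 3.58% at 30 min against 0 min, and 9.58% and 8.42% from 30 to 60 min. The median log2 change of the 66 was -0.01 at 60 min against 0 min, and that of all genes was 0.00. Scaled by total counts alone, which moved the median of all genes at 60 min by -0.07, the split at 60 min against 0 min was 6 higher and 17 lower, and from 30 to 60 min 5 higher and 15 lower. Without replicate 3 of 0 min, 5 were higher at 30 min, and without replicate 1 or 3 of 0 min or replicate 2 or 3 of 30 min, 0 were lower. At 60 min against 0 min, 13 were higher and 9 lower without replicate 3 of 0 min, and 9 higher and 8 lower without replicate 1. From 30 to 60 min, 7 were lower without replicate 2 or 3 of 30 min and 6 without replicate 1 of 60 min. The comparisons share libraries and are not independent.

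The classes of regulator stood as follows at 60 min against 0 min, where 13.3% of all genes were called higher and 11.7% lower. Whether the classes differ from each other was not tested. Among the 8 Ras and Rap GEF genes, Rasgef1b and Rapgef2 rose and 0 fell, while 1 was lower at an unadjusted p under 0.05. Of the 15 Arhgef genes, 3 rose and 2 fell. Of the 10 Dock genes, Dock10 and Dock4 rose and 0 fell, with 0 lower also before adjustment (p under 0.05), and neither DESeq2 nor limma-voom called one lower. Of the 7 Ras GAP genes, Rasa2 rose and Rasal3 fell. Of the 26 Arhgap genes, 3 rose and 9 fell. GEF genes made up 7 of the 11 that rose and GAP genes 10 of the 12 that fell.

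**Figure D1:**
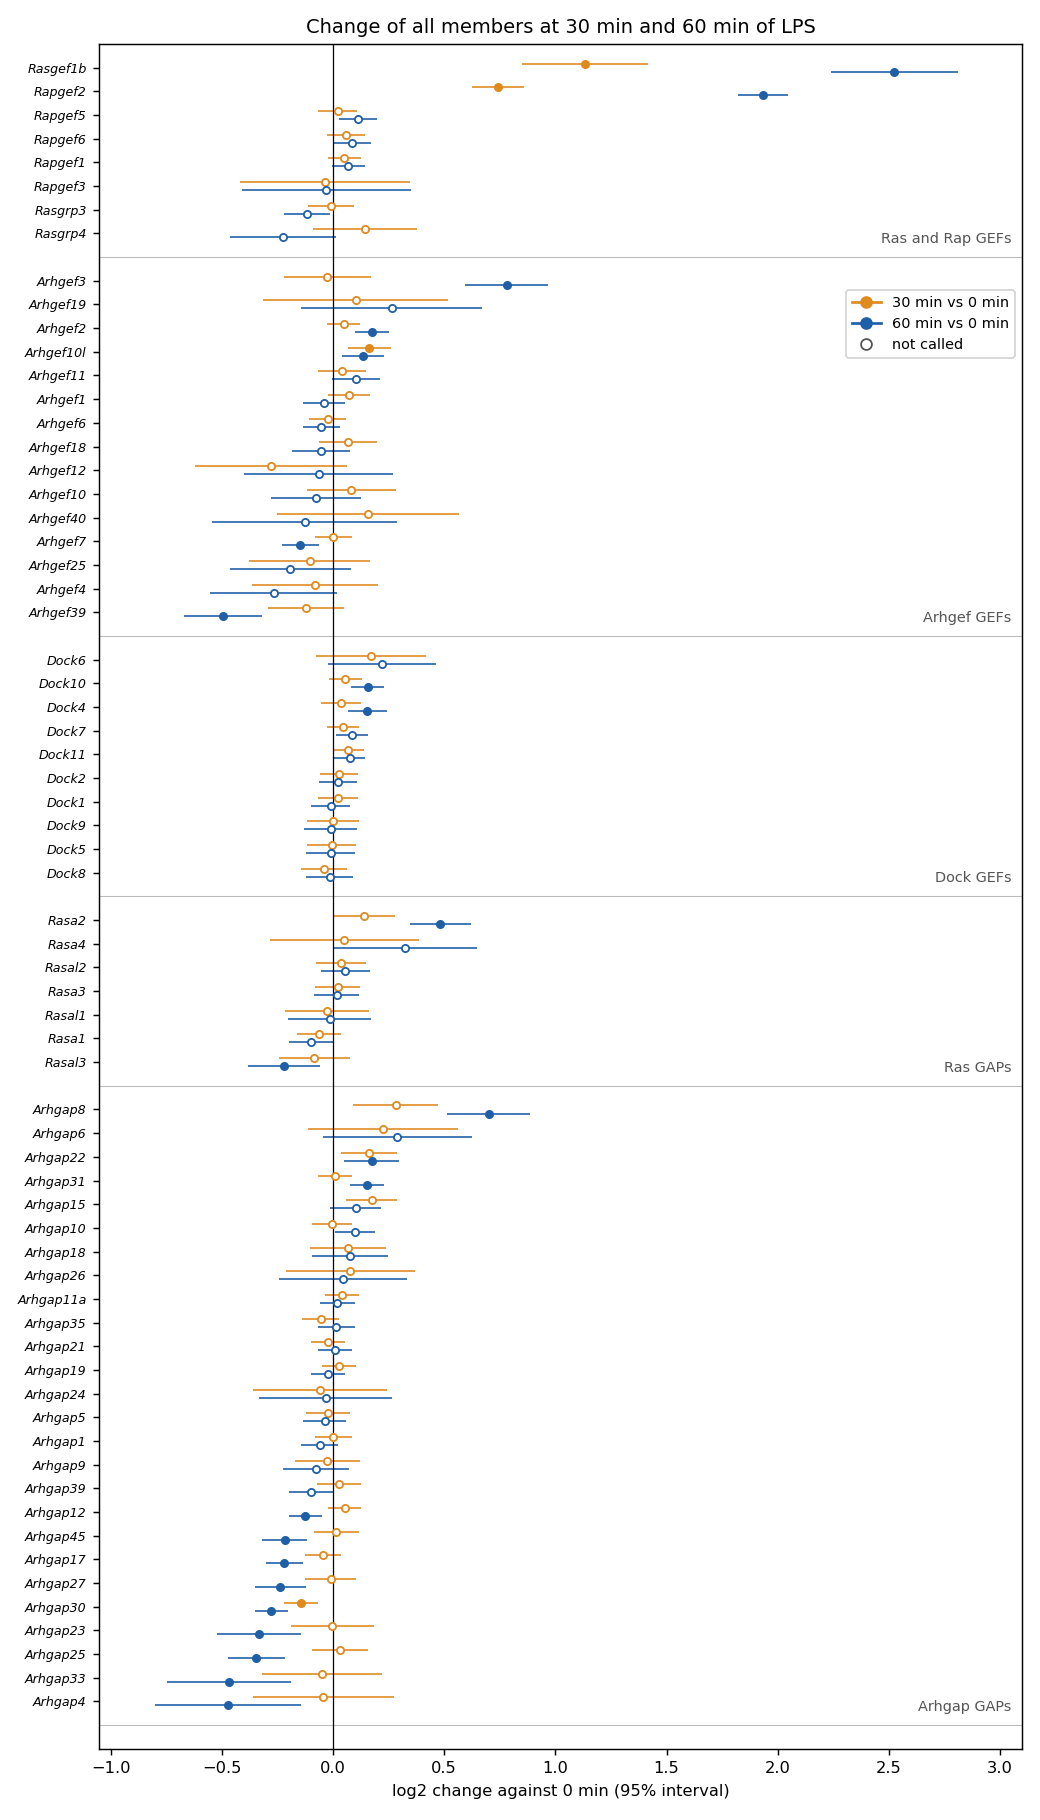
Log2 change (x axis) of each of the 66 genes (y axis), by class, at 30 min (orange) and 60 min (blue) against 0 min, with 95% intervals of the edgeR fit; filled points were called and open points were not. Rasgef1b and Rapgef2 stand far to the right at 60 min, with log2 changes of 2.52 and 1.94, and 9 of the 12 genes called lower at 60 min are in the Arhgap class at the bottom.

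Rasgef1b, whose protein is an exchange factor reported for Rap2 and whose gene is known to be induced by Toll-like receptor ligands, had 56.4, 60.1 and 58.0 CPM at 0 min, 168.3, 104.5 and 110.0 CPM at 30 min, and 321.3, 332.4 and 349.4 CPM at 60 min. The 3 times did not overlap, and replicate 1 at 30 min stood above the other two. The log2 change was 2.52 at 60 min against 0 min (SE 0.13, adjusted p = 3.16e-09), a 5.75-fold rise, and 1.13 at 30 min (SE 0.13, adjusted p = 4.72e-05). Without replicate 1 of 30 min the value at 30 min was 0.88, still called. Per kb of exon, Rasgef1b was 38th of the 66 at 0 min and 6th at 60 min.

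Rapgef2 (PDZ-GEF1), an exchange factor for Rap1 and Rap2, had 30.1, 30.3 and 30.8 CPM at 0 min, 54.6, 48.3 and 49.4 CPM at 30 min, and 122.8, 110.2 and 115.5 CPM at 60 min. Here too each time lay wholly above the one before. The log2 change was 1.94 at 60 min against 0 min (SE 0.05, adjusted p = 7.10e-12) and 0.74 at 30 min (SE 0.05, adjusted p = 3.71e-07). Per kb of exon it was 47th at 0 min and 27th at 60 min. In the authors' deposited table the log2 fold changes at 60 min were 2.52 for Rasgef1b and 1.94 for Rapgef2. The authors' deposited table called 9 of the 66 genes higher and 8 lower at 60 min (adjusted p under 0.05), all 17 in the direction called here. It did not call Arhgap12, Arhgap22, Arhgap33, Arhgap4, Arhgef10l and Rasal3, which were called here, with the authors' deposited table giving adjusted p of 0.0688 to 0.116. At 30 min the authors' deposited table called Rasgef1b and Rapgef2 higher and Arhgap30 lower, and not Arhgef10l.

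The promoter windows of Rasgef1b and Rapgef2 are shown because the genes rose together and most. Windows of 2 genes that fell, Arhgap30 and Arhgap25, are shown as well, although the falls of Arhgef39, Arhgap4 and Arhgap33 were larger. Each runs from 250 bases before to 50 after a transcript start in RefSeq, on GRCm38.p6, 5′ to 3′, with CpG pairs in capitals. The windows are chr5:99252878-99253177 (minus strand) for Rasgef1b, chr3:79145826-79146125 (minus) for Rapgef2, chr1:171388710-171389009 (plus) for Arhgap30 and chr6:87533210-87533509 (minus) for Arhgap25.
Rasgef1b: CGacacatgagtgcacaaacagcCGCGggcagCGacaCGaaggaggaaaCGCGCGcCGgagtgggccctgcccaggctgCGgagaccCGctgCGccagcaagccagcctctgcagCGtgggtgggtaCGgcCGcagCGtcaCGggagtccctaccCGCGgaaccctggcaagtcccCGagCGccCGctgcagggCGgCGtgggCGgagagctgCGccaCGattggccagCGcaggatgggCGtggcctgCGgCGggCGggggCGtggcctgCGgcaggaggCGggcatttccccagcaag
Rapgef2: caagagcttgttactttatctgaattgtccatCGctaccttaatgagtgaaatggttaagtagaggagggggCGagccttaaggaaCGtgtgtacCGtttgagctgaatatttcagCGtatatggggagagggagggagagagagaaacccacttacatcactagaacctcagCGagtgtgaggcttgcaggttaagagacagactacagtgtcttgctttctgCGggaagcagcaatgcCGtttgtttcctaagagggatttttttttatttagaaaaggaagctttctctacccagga
Arhgap30: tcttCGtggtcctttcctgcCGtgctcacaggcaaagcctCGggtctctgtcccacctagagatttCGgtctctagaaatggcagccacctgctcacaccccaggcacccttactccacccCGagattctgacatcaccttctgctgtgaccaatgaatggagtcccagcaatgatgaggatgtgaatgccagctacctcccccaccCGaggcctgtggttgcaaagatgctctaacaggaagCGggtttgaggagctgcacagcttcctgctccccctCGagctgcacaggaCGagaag
Arhgap25: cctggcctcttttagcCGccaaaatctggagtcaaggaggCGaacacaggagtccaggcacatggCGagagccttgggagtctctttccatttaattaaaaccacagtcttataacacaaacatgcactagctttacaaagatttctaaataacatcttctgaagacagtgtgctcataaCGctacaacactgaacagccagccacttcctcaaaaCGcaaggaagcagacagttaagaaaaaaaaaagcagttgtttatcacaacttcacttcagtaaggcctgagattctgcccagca
The Rasgef1b window was 73.3% G and C and held 35 CpG pairs, and that of Rapgef2 was 45.0% G and C and held 8. The Arhgap30 window held 9 CpG pairs at 57.0% G and C, and the Arhgap25 window 5 at 43.7%. Rapgef2 and Arhgap25 each have a second window, of 44.0% G and C with 4 CpG pairs and of 56.3% with 6; the one starting farther upstream is printed. The printed windows of the 2 strongest risers thus differed widely in base composition. The Rapgef2 windows lie inside the annotated gene, at internal starts, so the 5′ end of that gene was not covered. Which starts are used in these cells was not tested.

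RefSeq windows were at hand for 50 of the 66 genes, 78 windows in all, with a median of 11.0 CpG pairs, beside 7.00 over all 32851 RefSeq windows. Both strands were searched for exact matches to 4 elements used by factors that LPS or growth signals activate. The patterns were GGGRNWYYCC for the kB site, TGANTCA for the AP-1 site and TGACGTCA for the cAMP response element (CRE). For the CArG box of serum response factor the pattern was CCWWWWWWGG. In these, R is A or G, Y is C or T, W is A or T, and N is any base. A kB match lay in 6 of the 78 windows (7.69%), beside 4.51% of all windows, in Arhgap45, Arhgef19, Arhgef2, Arhgef4, Dock6 and Rasa3. AP-1 matches lay in 5 windows (6.41%, beside 7.81% of all), of Arhgap18, Arhgef10l, Arhgef19 and Dock4. The CRE matched in Arhgef7 alone and the CArG box in Rasa4 alone, beside 1.79% and 1.63% of all windows. Most of the 78 windows held no exact match to any of the 4 patterns, among them those of Rasgef1b, Rapgef2, Rasa2, Arhgap30 and Arhgap25. Sites that differ from these patterns by a base were not searched for, so such windows may still hold them. These searches were added after the changes were known, and no test was made of them.

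Arhgef3 (XPLN), a GEF for RhoA and RhoB, was called higher at 60 min and not at 30 min. It had 11.9, 11.0 and 12.7 CPM at 0 min, 12.5, 11.5 and 11.0 CPM at 30 min, and 22.2, 18.1 and 20.8 CPM at 60 min. The 60 min libraries lay above all others, while those of 30 and 0 min overlapped. The log2 change was 0.78 at 60 min against 0 min (SE 0.09, adjusted p = 1.03e-05) and -0.03 at 30 min (95% interval -0.22 to 0.17).

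Arhgap8, a GAP known in human as BPGAP1, had 5.17, 5.31 and 5.74 CPM at 0 min, 6.43, 6.97 and 6.36 CPM at 30 min, and 8.91, 8.88 and 8.59 CPM at 60 min. The 3 times did not overlap. The rise at 60 min against 0 min was called (log2 change 0.70, SE 0.09, adjusted p = 2.98e-05), and the value at 30 min, 0.28, was not (adjusted p = 0.0694). Rasa2, a Ras GAP of the GAP1 family, had 39.5, 36.1 and 39.0 CPM at 0 min, 45.2, 39.4 and 41.9 CPM at 30 min, and 56.2, 55.4 and 48.5 CPM at 60 min. Its 60 min libraries lay above all others, and the log2 change against 0 min was 0.48 (SE 0.06, adjusted p = 5.37e-05). Rasgef1b, Rapgef2, Arhgef3 and Arhgap8 were the 4 genes of the set that rose at least 1.5-fold.

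The other 6 genes called higher at 60 min against 0 min changed less, with log2 changes between 0.13 and 0.18. Arhgef2 (GEF-H1), a RhoA GEF held on microtubules, averaged 125.2 ± 3.63 CPM at 0 min, 129.4 ± 2.67 CPM at 30 min and 141.3 ± 2.87 CPM at 60 min (SD, n = 3 each), with the 60 min libraries above all others (log2 change 0.18 against 0 min, adjusted p = 0.00180). Dock10, a GEF for Cdc42 and Rac, averaged 124.0, 128.8 and 138.2 CPM at the 3 times (log2 change 0.16, adjusted p = 0.00396). The Rac GEF gene Dock4 had a log2 change of 0.15, as did Arhgap31 (CdGAP), a GAP for Rac and Cdc42. The calls of Dock10, Dock4 and Arhgap31 were lost with total counts as the only scaling (adjusted p = 0.0840, 0.152 and 0.0758). Dock4 was also lost without replicate 1 of 60 min (adjusted p = 0.0854).

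Arhgap22, a Rac GAP, and Arhgef10l, a GEF for RhoA, were called only narrowly. Arhgap22 had 50.5, 45.1 and 55.2 CPM at 0 min, 54.5, 56.8 and 57.7 CPM at 30 min, and 56.5, 57.9 and 55.9 CPM at 60 min, so that the highest 0 min library lay close to the 60 min ones (log2 change 0.17, adjusted p = 0.0417). Its call was lost in 9 of the 17 alternatives, among them the omission of any 1 library other than replicate 3 of 0 min and replicate 1 of 30 min, with adjusted p between 0.0518 and 0.223. Arhgef10l had 59.9, 54.9 and 61.2 CPM at 0 min, 67.2, 63.5 and 66.6 CPM at 30 min, and 64.2, 63.2 and 65.8 CPM at 60 min. It was called higher at 30 min (log2 change 0.16, adjusted p = 0.0348) and at 60 min (0.13, adjusted p = 0.0404), and each call was lost in 8 of 17 alternatives. Those were total counts, DESeq2, a fit of the 2 times alone, and the omission of replicate 1 or 2 of 0 min or replicate 1 of 60 min in both, besides replicates 1 and 3 of 30 min at 30 min and replicates 2 and 3 of 60 min at 60 min. The adjusted p then ran from 0.0563 to 0.121 at 30 min and from 0.0597 to 0.314 at 60 min.

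**Figure D2:**
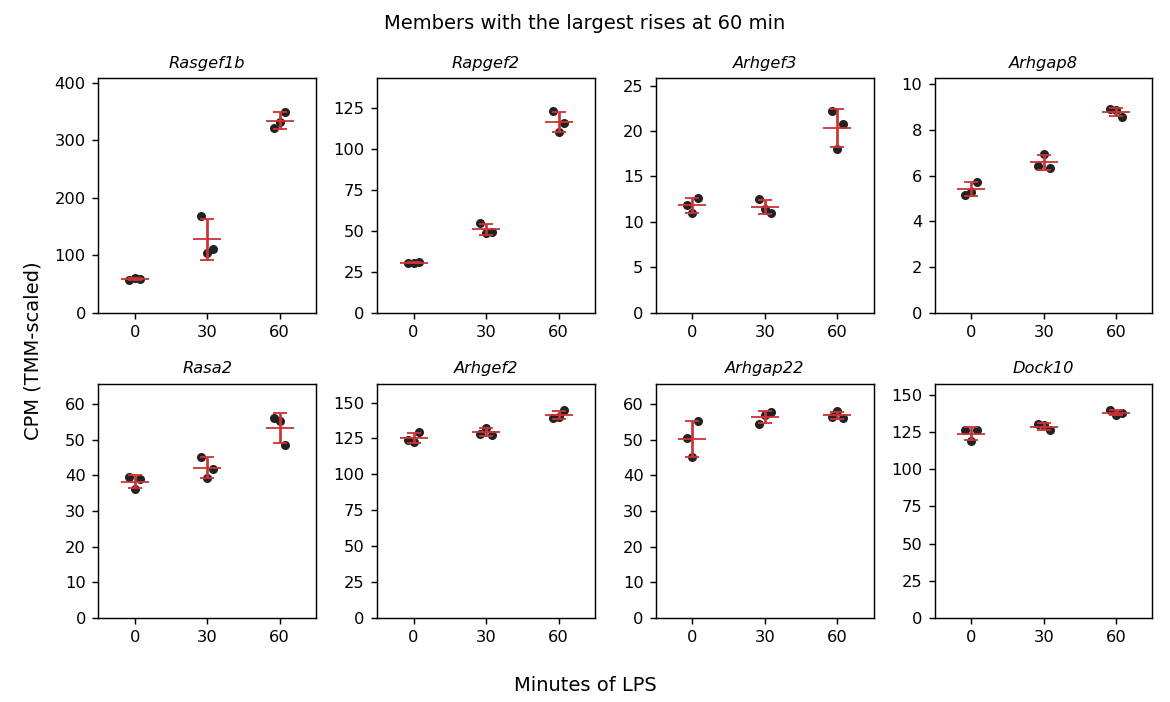
CPM (y axis, from 0) against minutes of LPS (x axis) for the 8 genes with the largest rises at 60 min; points are libraries and red bars the mean and SD of 3. Rasgef1b and Rapgef2 were already higher at 30 min, and Arhgef3 averaged 11.6 CPM at 30 min and 20.3 CPM at 60 min.

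The 12 genes called lower at 60 min against 0 min changed by less than 1.5-fold each, and the largest changes were in Arhgef39, Arhgap4 and Arhgap33. Arhgef39, a GEF gene, had 11.5, 12.1 and 12.2 CPM at 0 min, 10.1, 12.0 and 10.8 CPM at 30 min, and 8.80, 8.31 and 8.28 CPM at 60 min. Its 60 min libraries lay below all others, with a log2 change of -0.49 against 0 min (SE 0.08, adjusted p = 0.000406). Arhgap25, a Rac GAP of leukocytes, had 42.6, 39.6 and 41.3 CPM at 0 min, 43.8, 40.3 and 42.3 CPM at 30 min, and 29.3, 34.8 and 33.2 CPM at 60 min. It also did not overlap the other times (log2 change -0.34, SE 0.06, adjusted p = 0.000647).

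Arhgap30, a GAP for RhoA and Rac and 9th of the 66 per kb of exon at 0 min, was the single gene also called lower at 30 min. It had 162.1, 158.7 and 162.7 CPM at 0 min, 150.9, 140.7 and 146.1 CPM at 30 min, and 132.0, 136.3 and 130.6 CPM at 60 min. The 3 times did not overlap. The log2 change was -0.28 at 60 min against 0 min (SE 0.04, adjusted p = 3.94e-05) and -0.14 at 30 min (SE 0.04, adjusted p = 0.0212). The call at 30 min was lost without replicate 1 or 3 of 0 min or replicate 2 or 3 of 30 min, with adjusted p of 0.0620 to 0.105.

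Arhgap4 and Arhgap33 were expressed at low levels. Arhgap4 had 4.51, 3.58 and 3.41 CPM at 0 min, 3.71, 3.47 and 3.97 CPM at 30 min, and 2.53, 3.29 and 2.44 CPM at 60 min. Its highest 60 min library was just under the lowest one of 0 min (log2 change -0.47, SE 0.15, adjusted p = 0.0354). The call was lost without replicate 1 of 0 min or replicate 1 or 3 of 60 min, with DESeq2, with the 2 times alone and with the replicate number as a block, with adjusted p of 0.0507 to 0.166. Arhgap33 averaged 3.95 ± 0.388 CPM at 0 min, 3.82 ± 0.406 CPM at 30 min and 2.86 ± 0.159 CPM at 60 min (SD, n = 3 each; log2 change -0.47, adjusted p = 0.0168). Without replicate 1 or 3 of 0 min, without replicate 2 of 60 min, or with DESeq2, its adjusted p was 0.0523 to 0.0739.

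Of the other Arhgap genes, Arhgap23 had a log2 change of -0.33 (adjusted p = 0.0128) and Arhgap27, a Cdc42 GAP, one of -0.24 (adjusted p = 0.00485). Arhgap17 (RICH1), a GAP for Cdc42 and Rac, and Arhgap45 (HMHA1), a GAP of blood cells, had log2 changes of -0.22 each, with adjusted p of 0.000680 and 0.00366. Arhgap12 had a log2 change of -0.12 (adjusted p = 0.0184). Arhgap23 was lost without replicate 3 of 0 min or replicate 1 of 60 min (adjusted p = 0.0557 at most), and Arhgap12 without replicate 3 of 0 min or of 60 min (0.0649 at most). Arhgef7 (beta-PIX), a GEF for Rac and Cdc42, had a log2 change of -0.15 (adjusted p = 0.0126), lost without replicate 1 of 0 min (0.0668).

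Rasal3, a Ras GAP of blood cells, had 24.2, 23.1 and 26.7 CPM at 0 min, 23.3, 23.2 and 23.5 CPM at 30 min, and 19.6, 20.4 and 23.8 CPM at 60 min, so replicate 3 of 60 min lay within the range of 0 min. The log2 change was -0.22 (adjusted p = 0.0470). The call was lost in 9 of 17 alternatives, namely DESeq2, the 2 times alone and the omission of any 1 library other than replicate 2 of 0 min and replicate 3 of 60 min, with adjusted p of 0.0568 to 0.189.

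**Figure D3:**
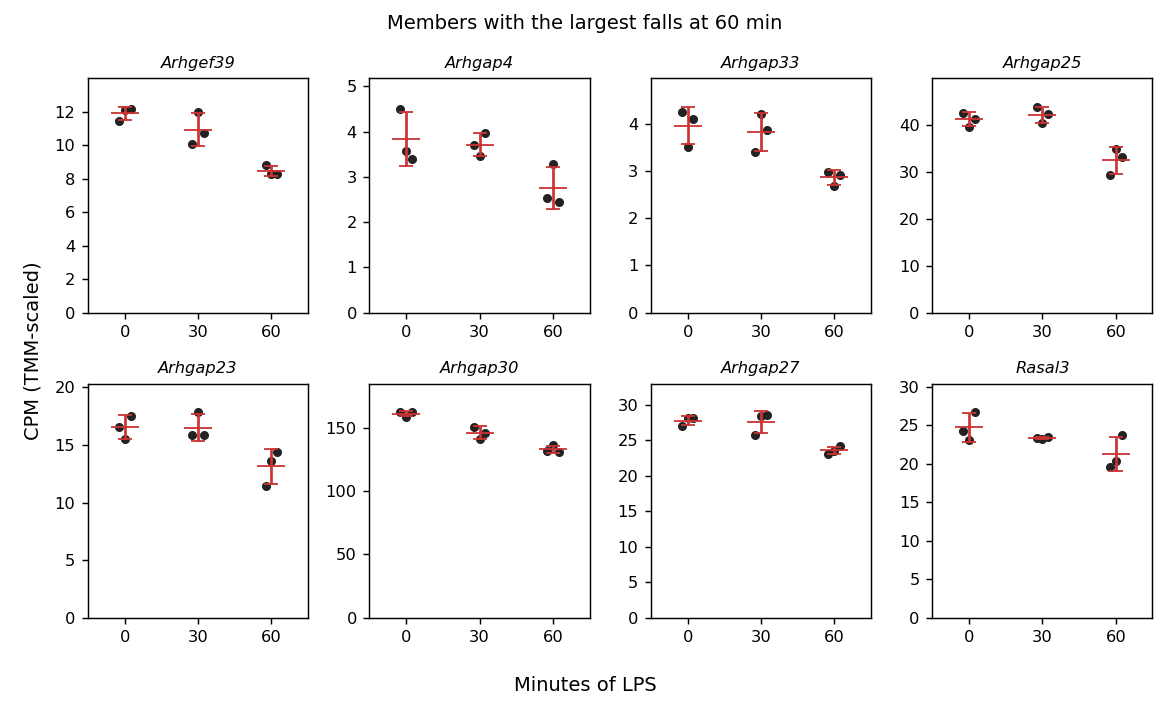
CPM (y axis, from 0) against minutes of LPS (x axis) for the 8 genes with the largest falls at 60 min; points are libraries and red bars the mean and SD of 3. Arhgef39, Arhgap25, Arhgap30 and Arhgap27 at 60 min lie below every 0 min library, while Rasal3 overlaps.

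The test of 60 min against 30 min asks directly whether the later value differed from the earlier one. Called higher at 60 min were Rasgef1b (log2 change 1.39), Rapgef2 (1.19), Arhgef3 (0.81), Arhgap8 (0.42), Rasa2 (0.34), Arhgap31 (0.14) and Arhgef2 (0.13). The call of Arhgap31 was lost with total counts or without replicate 2 of 60 min (adjusted p = 0.0560 at most), and that of Arhgef2 with total counts or without replicate 1 or 3 of 30 min or replicate 2 or 3 of 60 min (0.131 at most). The largest falls called were those of Arhgap33 (-0.42), Arhgap25 (-0.38), Arhgef39 (-0.37), Rasgrp4 (-0.37) and Arhgap23 (-0.33). Rasgrp4, a diacylglycerol-responsive Ras GEF known from mast cells, averaged 4.24 ± 0.298 CPM at 60 min and 5.47 ± 0.429 CPM at 30 min (SD, n = 3 each), and was not called against 0 min. All 5 mast cell markers were at 0 in every library. Its call (adjusted p = 0.0355) was lost without replicate 1 or 3 of 30 min, without replicate 1 or 2 of 60 min, with no filter on low counts and with DESeq2 (0.0507 to 0.150). That of Arhgap33 (adjusted p = 0.0427) was lost in 12 of 17 alternatives, among them the omission of any 1 library other than replicate 2 of 0 min and replicate 1 of 30 min (up to 0.176), and that of Arhgap23 without replicate 2 of 30 min or replicate 1 of 60 min (0.0985 at most).

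In 42 of the 66 genes no comparison gave a call. Their log2 changes at 60 min against 0 min ran from -0.27 to 0.32, and the 95% interval lay within a 1.5-fold change in 39 of the 42. The 3 exceptions, Arhgef19, Rasa4 and Arhgap6, averaged 2.62, 2.81 and 4.61 CPM at 60 min and 2.18, 2.24 and 3.76 CPM at 0 min. Most of the Dock family belonged here: Dock2 averaged 264.7 ± 10.1 CPM at 60 min and 260.4 ± 11.0 CPM at 0 min, and Dock8 227.0 ± 13.0 CPM at 60 min and 229.4 ± 14.2 CPM at 0 min (SD, n = 3 each). Rasgrp3, at 219.8 ± 10.2 CPM at 60 min and 238.5 ± 15.7 CPM at 0 min, was not called, but was called lower with no filter on low counts, with total counts, and without replicate 3 of 0 min or of 60 min (log2 change -0.12 to -0.19).

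Reads of overlapping genes add a limit, since the strand setting of the counting is not given in the sources used here. Exons of 26 of the 66 genes overlap another gene, in 25 of them one on the opposite strand. Of the 24 genes called in any comparison, 10 have such an overlap, and 3 of these share it with a gene of at least 1 CPM (plain totals): Arhgap4, whose exons share 480 bases with Naa10 on the same strand (mean 43.5 CPM), Arhgap17 with Lcmt1 and Rasgrp4 with Fam98c. The other 7 are Arhgap8, Arhgap22, Arhgap23, Arhgap27, Arhgef2, Arhgef3 and Rasal3, whose partners had at most 0.579 CPM; in Arhgap22 the partner Gm15512 covers 36.9% of the exon bases.

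The genes that rose and fell also differed in length, a feature looked at after the changes were known and not tested. By RefSeq bounds on GRCm38.p6, the median gene span was 151.5 kb for the 11 genes called higher at 60 min against 0 min, 26.8 kb for the 12 called lower and 120.5 kb for the 43 not called. Of the 34 genes of at least 100 kb, 7 rose and 2 fell, and of the 20 under 50 kb, 1 rose and 7 fell. Over the 11006 protein-coding genes with such bounds, 14.9% of those of at least 100 kb were called higher and 5.77% lower, and of those under 50 kb 13.7% higher and 11.9% lower. The source of the bounds matters most for Rasgef1b, which spans 35.5 kb in RefSeq and 511.6 kb in GENCODE M21 (chr5:99217426-99729065), where transcripts start far upstream of the window printed above. Its level per kb rests on the merged exons of those transcripts. With the GENCODE bounds, 8 of the 34 genes of at least 100 kb rose.

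**Figure D4:**
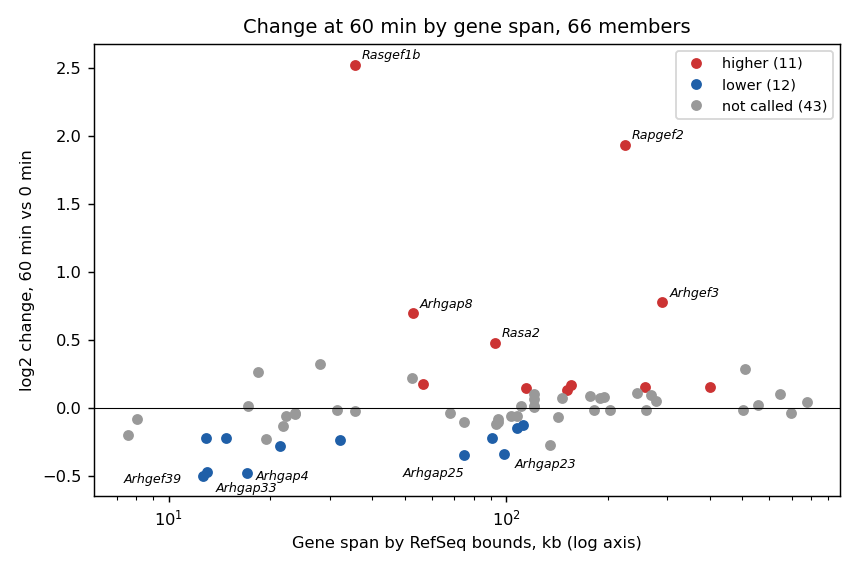
Log2 change at 60 min against 0 min (y axis) by gene span in kb from RefSeq bounds (x axis, log scale), for the 66 genes, with those called higher in red, called lower in blue and not called in grey. Of the 20 genes under 50 kb, Rasgef1b alone was called higher and 7 were called lower.

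The GTPases that these proteins act on were taken from fixed lists, whose counts can be read beside the 13.3% of all genes called higher and 11.7% called lower at 60 min against 0 min. Of 18 GTPase genes of the RhoA, Rac and Cdc42 family tested, 6 rose and 2 fell at 60 min against 0 min, with a median log2 change of 0.05 beside 0.00 over all genes. Rhob averaged 41.7 ± 1.87 CPM at 0 min, 123.2 ± 3.48 CPM at 30 min and 162.4 ± 6.51 CPM at 60 min (SD, n = 3 each; log2 change 1.96 at 60 min, adjusted p = 1.53e-12). Rnd3, an atypical GTPase of this family that stays bound to GTP, had a log2 change of 1.02, and Rhoh, a GTPase of blood cells at about 1 CPM, one of -1.40. Rhoa, Rac1, Rac2 and Cdc42 had log2 changes between 0.02 and 0.07 and were not called. Of 18 Ras and Rap family genes, 5 rose and 1 fell. Gem, a Ras-related gene, averaged 0.0803 CPM at 0 min, 0.446 CPM at 30 min and 2.63 CPM at 60 min, so its log2 change of 4.95 starts from a level under 10 counts per library. Rap1b, a target of Rapgef2, had a log2 change of 0.23 (adjusted p = 0.000551), while Rap1a, Rap2a, Rap2b and Rap2c were not called.

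Other regulators of the same GTPases, outside the naming rule, moved in both directions at 60 min against 0 min. Over all genes, 13.3% were called higher and 11.7% lower. Of 22 other Ras and Rap GEF and GAP genes, 3 rose and 4 fell. Ralgds, a GEF for Ral that Ras binds, averaged 7.29 ± 1.21 CPM at 0 min, 12.1 ± 0.795 CPM at 30 min and 33.4 ± 1.67 CPM at 60 min (SD, n = 3 each; log2 change 2.19, adjusted p = 5.43e-10). Sh2d3c had a log2 change of -0.50. Of 29 other GEF genes of the RhoA, Rac and Cdc42 family and Dock partners, 4 rose, Spata13 (0.55) and Plekhg2 (0.51) the most, and 7 fell, led by the Cdc42 GEF gene Fgd4 (-0.53). Of 17 other GAP genes of that family, Tagap (0.51), Ocrl (0.20) and Abr rose and Stard8 (-0.21) fell.

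Among inhibitors, 2 of the 5 Sprouty and Spred genes tested rose, Spred1 (0.36) and Spry2 (0.34), and 0 fell, with 0 lower also before adjustment (p under 0.05) and with DESeq2 or limma-voom. Neither of the 2 genes tested that encode GDP dissociation inhibitors of the RhoA, Rac and Cdc42 family was called, with 0 at an unadjusted p under 0.05 and 0 by either other tool. Of 41 effector genes of the family, 9 rose and 4 fell. Cdc42ep2 had a log2 change of 3.85 from 0.315 CPM at 0 min, and Cybb, the NADPH oxidase subunit gp91phox, averaged 344.2 ± 9.88 CPM at 60 min and 198.5 ± 3.23 CPM at 0 min (SD, n = 3 each; 0.79). Of 20 Ras and Rap effector genes, 5 rose and 6 fell, among them Rin1 (-0.45), Rin2 (-0.41) and Rassf2 (-0.35). Over the 172 genes of all 9 lists, 37 (21.5%) were called higher and 25 (14.5%) lower at 60 min against 0 min. The shares over all genes, beside which each list count at that time can be read, were 13.3% and 11.7%. At 30 min against 0 min, 11 (6.40%) were higher and 3 (1.74%) lower, beside 4.84% and 3.35% of all genes. From 30 to 60 min, 28 (16.3%) were higher and 27 (15.7%) lower, beside 8.87% and 7.65% of all genes.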

How the data were processed

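The authors deposited expected counts per gene, estimated with RSEM 1.3.1 after alignment with STAR 2.7.0f, per the submitters' processing notes. Tables of the authors' DESeq2 comparisons were also deposited, with log2 fold changes and p-values per gene, per the file headers, and no other settings are given in the sources used here. Between 5.04% and 5.32% of a library's values were not whole, and all were rounded. Of 55450 identifiers, 55450 matched GENCODE M21 (GRCm38), which gave exons and positions.

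All 9 libraries entered a quasi-likelihood fit of edgeR 4.0.16 (R 4.3.3) with time as the only term, TMM factors and default filterByExpr (minimum count 10). The TMM factors fell with time: 1.02 to 1.03 at 0 min, 0.998 to 1.01 at 30 min and 0.971 to 0.983 at 60 min. The p-values were Benjamini-Hochberg adjusted over 14246 genes. The script was tested on simulated data. The SE was taken from the F statistic, as the size of the log2 change divided by the root of F, and intervals are 95%. Alternatives used DESeq2 1.42.0, limma 3.58.1, other scalings, filters and samples. There were 17 such fits.

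Members and lists were chosen with earlier results of these data known. Named members are the 8 largest called rises and falls against 0 min, the 5 from 30 to 60 min, the 8 highest per kb and any needed to complete a small count; other genes are among the 3 largest called changes of a list. Arhgap12, Arhgap17, Arhgap31, Arhgap45, Arhgef7, Dock4, Rhoa, Rac1, Rac2, Cdc42, the Rap genes, Abr and the genes holding a motif were named after their values were seen, as were uncalled genes with wide intervals. Marker lists for neutrophil, fibroblast, endothelial and epithelial cells summed to at most 7.07, 0.210, 2.20 and 0.0700 CPM by plain totals. Libraries of a time differed by more than sampling noise (mean chi-square per gene 4.93 to 18.3), so none is a copy. For 1 gene of a pathway list the values are not reported here.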

Additional observations from a re-analysis of the deposited data

Results flagged for a closer look

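In 18 of the 66 genes the change at 60 min differed from that at 30 min by the direct test of 60 min against 30 min, and these are the values a reader may want to look at again. Called higher were 7 (10.6%), beside 8.87% of all genes tested, and called lower 11 (16.7%), beside 7.65% of all genes. The later value was higher by a log2 difference of 1.39 in Rasgef1b, 1.19 in Rapgef2, 0.81 in Arhgef3, 0.42 in Arhgap8, 0.34 in Rasa2, 0.14 in Arhgap31 and 0.13 in Arhgef2. It was lower in Arhgap30 (-0.13), Arhgef7 (-0.15), Arhgap17 (-0.17), Arhgap12 (-0.18), Arhgap27 (-0.23), Arhgap45 (-0.23), Arhgap23 (-0.33), Rasgrp4 (-0.37), Arhgef39 (-0.37), Arhgap25 (-0.38) and Arhgap33 (-0.42). The calls of Rasgef1b, Rapgef2, Arhgef3, Arhgap8, Rasa2, Arhgap12, Arhgap17, Arhgap45, Arhgef39 and Arhgap25 held in all 17 alternatives. The other 8 were lost in 1 or more, including some without 1 library. The adjusted p for Arhgap27 was 0.0552 without replicate 2 of 30 min, for Arhgef7 at most 0.0840 without replicate 2 or 3 of 30 min or replicate 1 or 2 of 60 min, and for Arhgap30 at most 0.0781 without replicate 1 or 3 of 30 min or of 60 min. Groups of 3 libraries are too small for a check of single outlying libraries.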

How the results depend on the processing

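Of the 11 genes called higher at 60 min against 0 min, 6 were called in all 17 alternatives (Rasgef1b, Rapgef2, Arhgef3, Arhgap8, Rasa2 and Arhgef2), as were 6 of the 12 called lower (Arhgap17, Arhgap25, Arhgap27, Arhgap30, Arhgap45 and Arhgef39). No direction was reversed in any of them, and limits of 0.5 or 5 CPM for choosing the genes kept each count within 1.5 times. With total counts as the only scaling, 6 genes of the set were higher at 60 min, and 43 genes of the pathway lists were lower, against 25 with TMM; the cause was not tested. A rule of at least 1.5-fold left 4 higher and 0 lower at 60 min against 0 min, 3 higher and 0 lower from 30 to 60 min, and 0 lower at 30 min, since these falls are small. Leaving out 1 library gave 2 to 5 higher and 0 to 1 lower at 30 min, and 6 to 11 lower from 30 to 60 min. At 60 min against 0 min it gave 8 to 13 higher and 8 to 12 lower. In the pathway lists it gave 7 to 11 higher and 1 to 4 lower at 30 min, and 16 to 29 lower from 30 to 60 min. Replicate numbers did not pair the libraries: same-numbered deviations correlated by -0.0637 to 0.0061, and 0 of 9 libraries correlated best with their own number. With a replicate block the set held 3 higher and 1 lower at 30 min, 11 and 11 at 60 min, and 7 and 10 from 30 to 60 min. Depth limits the genes under 10 CPM, where intervals are widest.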
